A study of Homo sapiens with 4 samples.

Results

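The genes described here are 9 genes of pericellular proteolysis: PLAU and PLAUR of the plasminogen system, the matrix metalloproteinase (MMP) genes MMP1, MMP9, MMP10 and MMP14, and the tissue inhibitors of metalloproteinases (TIMPs) TIMP1, TIMP2 and TIMP3. They were taken by gene symbol from a table of 28729 genes, and 8 of the 9 were matched. MMP10 is not analysed here. A mean of at least 1 FPKM over all libraries, the limit for testing, was reached by 4 of the 8 (PLAUR, TIMP1, TIMP2 and TIMP3), against 12645 genes of the whole table. FPKM is the number of fragments on a gene divided by the length of its exons and by the size of the library.

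The libraries came from TU-177, an established human laryngeal squamous cell carcinoma line. Both groups had been transduced with lentivirus carrying an shRNA and selected with puromycin from 48 h after transduction, with a control shRNA in sh_NC (n = 2) and an shRNA against SKA3, a kinetochore gene, in sh_SKA3 (n = 2). The labels give no time of harvest and name no second shRNA, so an effect of the shRNA itself and of the loss of SKA3 cannot be told apart. They also do not say that replicates are separate cultures, and the p-values measure the spread between these libraries, which may be technical.

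Urokinase, the product of PLAU, is a secreted serine protease that binds its receptor, the product of PLAUR, at the cell surface and converts plasminogen to plasmin. Plasmin degrades fibrin and other matrix proteins and can activate the latent forms of several MMPs. The MMPs are zinc proteases that together cleave most proteins of the extracellular matrix, and the TIMPs bind and block them. In carcinomas of the head and neck these genes are known mainly for their part in invasion, and in tumor tissue much of the MMP and urokinase RNA can come from stromal cells, which a pure cell line does not contain.

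Sequence upstream of the start site is shown for the genes of this group that were tested and had a window in the RefSeq promoter table (GRCh38.p14), because these are the genes whose levels are compared between the groups. Windows of 250 bases before the start were found for 6 of the 9 genes, and MMP1, MMP9 and TIMP2 had none. For TIMP1 and TIMP3 the letters run up to the first base that GENCODE 29 places in an exon. For PLAUR the whole window lies in exons of longer transcripts, and the letters of 1 match with 10 bases on each side are given. Capitals mark matches to AP-1 (TGANTCA) or the GC box (GGGCGG), both searched on either strand, where N is any base. All letters run 5′ to 3′ on the strand of the gene.
PLAUR, chr19:43670339-43670365, minus strand: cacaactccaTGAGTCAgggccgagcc
TIMP1, chrX:47582186-47582312, plus strand: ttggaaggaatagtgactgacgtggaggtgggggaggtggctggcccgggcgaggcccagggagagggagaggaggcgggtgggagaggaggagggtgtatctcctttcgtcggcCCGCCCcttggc
TIMP3, chr22:32801455-32801700, plus strand: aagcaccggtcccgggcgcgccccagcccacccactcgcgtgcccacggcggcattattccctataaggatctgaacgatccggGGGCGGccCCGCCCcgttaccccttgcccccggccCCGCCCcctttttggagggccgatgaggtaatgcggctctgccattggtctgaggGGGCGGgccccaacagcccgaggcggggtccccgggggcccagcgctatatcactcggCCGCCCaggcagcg

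The PLAUR window held 1 AP-1 match, which begins 186 bases before the start, and no GC box. The TIMP1 window held 2 GC boxes, of which 1 lies in the stretch shown, and the TIMP3 window held 5. Neither TIMP window held an exact match to the AP-1 pattern, and sites that differ from it by 1 base were not counted. Of 35116 windows of the same length, 6.6% held an AP-1 match and 42.6% held a GC box. A match is a description of the letters and no evidence of binding.

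SKA3 itself (log2 fold change -1.09, standard error 0.07, adjusted p = 0.00806) was lower in sh_SKA3, which checks the labels. Its call was lost without sh_NC 1 or sh_NC 2, and its log2 fold change stayed between -1.14 and -1.04 with any library left out. Such a fit leaves 1 library in a group. It called few genes of the whole table, and none without either sh_NC library, so a call lost there is not specific to a gene. All fold changes below are sh_SKA3 minus sh_NC on the log2(FPKM + 1) scale, which understates changes of genes with low FPKM. Adjusted p-values are from limma with Benjamini-Hochberg adjustment over 12645 genes, and genes past 0.05 are called. The test called 12.3% of all genes, 6.11% lower and 6.16% higher. With 2 libraries in each group the smallest p-value of an exact permutation test is 0.333.

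Among the 4 tested genes TIMP2 fell, and none was called higher. PLAUR, TIMP1 and TIMP3 did not pass the threshold. Both sh_SKA3 libraries lay below both sh_NC libraries for the TIMPs and above them for PLAUR. Over all genes tested, 29.2% lay apart in this way downward, 32.3% upward and 61.6% in either direction, so such a separation was common in these libraries. The median log2 fold change was -0.22 over the 4 genes and 0.01 over all genes tested.

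**Figure D1:**
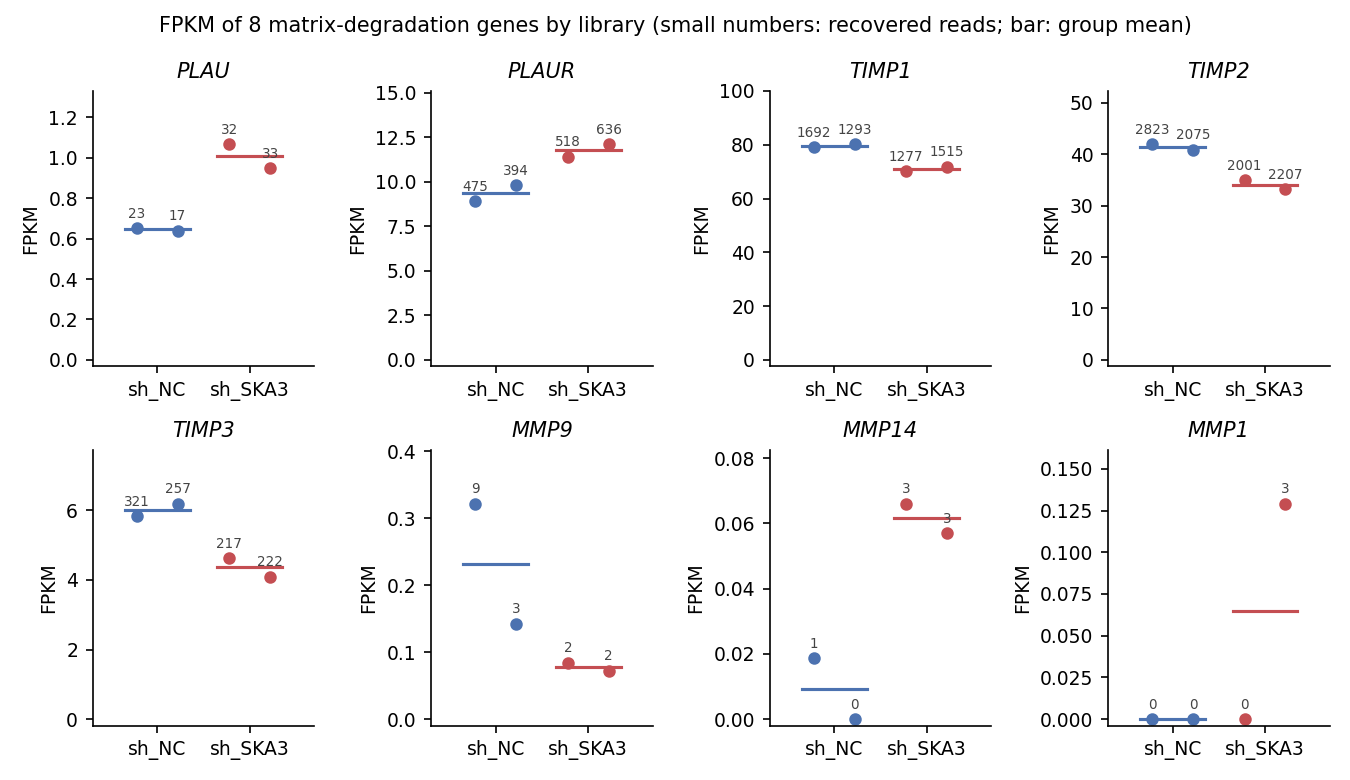
FPKM of 8 of the 9 genes in each of the 4 libraries, 1 panel per gene with its own linear axis. Points are libraries, horizontal bars are the means of the 2 libraries of a group, and small numbers are the whole reads recovered from the FPKM values. TIMP1, TIMP2 and TIMP3 stand on 217 to 2823 reads per library, while MMP1, MMP9 and MMP14 stand on 0 to 9.

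The genes differed in level by far more than the groups did. FPKM is per length, so levels can be compared between genes. TIMP1 had the highest mean, 75.2 FPKM, and stood at rank 556 of 28729 genes. It was followed by TIMP2 (37.7 FPKM, rank 1270), PLAUR (10.6 FPKM, rank 4482) and TIMP3 (5.19 FPKM, rank 7162). PLAU (0.826 FPKM, rank 13248), MMP9 (0.155 FPKM), MMP14 (0.0354 FPKM) and MMP1 (0.0323 FPKM) came last. Each gene down to PLAU exceeded the next one in this order in every library. MMP9 also exceeded MMP14 in FPKM, but on 2 against 3 reads in each sh_SKA3 library. MMP9, MMP14 and MMP1 could thus not be ordered at this depth. The TIMPs and the urokinase receptor were thus well measured in TU-177, PLAU stood on 17 to 33 reads per library, and MMP1, MMP9 and MMP14 were near the limit of detection.

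In the plasminogen system the protease and its receptor were both higher in sh_SKA3 in FPKM, without passing a test. PLAU (ENSG00000122861, chromosome 10 of GRCh38, 73909177 to 73917497, plus strand) had 0.652 and 0.639 FPKM in sh_NC 1 and 2, on 23 and 17 reads, against 1.07 and 0.949 FPKM in sh_SKA3 1 and 2, on 32 and 33 reads. The groups did not overlap, but the mean of 0.826 FPKM was under the limit for testing. Scaled to library size, the summed reads of sh_SKA3 (65) were 1.55 times those of sh_NC (40), with an exact 95% interval from 1.03 to 2.36 that covers counting error only. With limma voom on the recovered reads with a lower limit of 10 mean reads, a setting chosen after seeing the data, PLAU had a log2 fold change of 0.62 with a standard error of 0.32 and was not called (adjusted p = 0.175). That setting called 11.9% of 13841 genes lower and 13.1% higher. C10orf55, on the opposite strand, shares 916 of the 2950 exon bases of PLAU in GENCODE 29 and had at most 0.0882 FPKM in any library.

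PLAUR (ENSG00000011422, chromosome 19, 43646095 to 43670547, minus strand) was the better measured of the pair. It had 8.91 and 9.81 FPKM in sh_NC 1 and 2 and 11.4 and 12.1 FPKM in sh_SKA3 1 and 2, on 475, 394, 518 and 636 reads in this order. The group means were 9.36 ± 0.636 FPKM in sh_NC and 11.8 ± 0.481 FPKM in sh_SKA3 (SD, n = 2 each). The log2 fold change of 0.30 (standard error 0.08) did not pass the threshold (adjusted p = 0.0669). It did pass in 4 of 10 alternative settings with all libraries, where the adjusted p-value ran from 0.0109 to 0.144. The ratio of PLAUR to PLAU was 13.7 and 15.3 in sh_NC and 10.7 and 12.8 in sh_SKA3, so the receptor RNA was well above the urokinase RNA in every library.

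The genes of plasminogen activation were followed as a list of 20, of which 16 had a row and 10 were tested. PLAU and PLAUR belong to this list, and PLAUR is among the 10. ANXA2 and S100A10 were called higher, none was called lower, and the median log2 fold change of the 10 was 0.20. Of all genes tested, 6.16% were called higher and 6.11% lower. These 2 genes encode annexin A2 and p11, the subunits of a cell-surface complex that binds tissue plasminogen activator and plasminogen. ANXA2 had 136 and 128 FPKM in sh_NC and 161 and 165 FPKM in sh_SKA3, a log2 fold change of 0.30 (standard error 0.06, adjusted p = 0.0374). S100A10 had 185 and 179 FPKM in sh_NC and 212 and 227 FPKM in sh_SKA3, a log2 fold change of 0.27 (standard error 0.06, adjusted p = 0.0496). Both calls were lost when any single library was left out, as were most calls over the whole table. The log2 fold changes in these fits ran from 0.26 to 0.34 for ANXA2 and from 0.22 to 0.32 for S100A10. With all libraries kept both calls were also lost without the filter (adjusted p = 0.104 for ANXA2 and 0.141 for S100A10) and without the trend (0.0869 and 0.107). That of S100A10 was lost under median-of-ratios scaling too (0.0532). ANXA2 has processed pseudogenes, so its reads may be shared with copies. Whole reads were not recovered for ANXA2, nor for the abundant genes ENO1, BSG and ITGB1. The search for whole reads from proportions between libraries had an upper limit of reads, which abundant genes can exceed, and the cause was not tested. ANXA2, ENO1, BSG and ITGB1 are therefore in neither voom setting.

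ENO1, a glycolytic enzyme that also acts as a plasminogen receptor on the cell surface, was the most abundant gene of the list with 1111 and 1187 FPKM in sh_NC and 1141 and 1260 FPKM in sh_SKA3. Its groups overlapped, and its log2 fold change was 0.06 (adjusted p = 0.605). PLAT, the gene of tissue plasminogen activator, had 1.24, 1.21, 1.49 and 1.52 FPKM in sh_NC 1, sh_NC 2, sh_SKA3 1 and sh_SKA3 2 (log2 fold change 0.17, adjusted p = 0.444). PLAT was chosen for its role after its values were seen. Of the 16 genes with a row, 6 stayed under a mean of 1 FPKM, PLAU among them. PLG, the gene of plasminogen itself, is not analysed here.

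The listed MMP genes were scarcely expressed. MMP9 (gelatinase B, ENSG00000100985, chromosome 20, 46008908 to 46016561, plus strand) had 0.322 and 0.142 FPKM in sh_NC and 0.0841 and 0.0726 FPKM in sh_SKA3. These values stood on 9, 3, 2 and 2 reads. The sh_SKA3 libraries were the lower ones, at 0.318 times the sh_NC reads after scaling to library size, with an exact 95% interval from 0.0748 to 1.05 for counting error, which includes no difference. SLC12A5-AS1 lies on the opposite strand and shares 430 of the 2336 exon bases of MMP9. It had 0.559 and 0.396 FPKM in sh_NC and 0.219 and 0.151 FPKM in sh_SKA3. Strand use in the counting is not given in the sources used here, so the reads of the pair cannot be told apart in the shared exons.

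MMP14 (ENSG00000157227, chromosome 14, 22836557 to 22849027, plus strand) encodes the membrane-bound MT1-MMP, the activator of MMP2. It had 0.0187 and 0 FPKM in sh_NC and 0.0660 and 0.0570 FPKM in sh_SKA3, on 1, 0, 3 and 3 reads. MMP1, the gene of interstitial collagenase (ENSG00000196611, chromosome 11, 102789920 to 102798160, minus strand), was at 0 in sh_NC 1, sh_NC 2 and sh_SKA3 1 and had 0.129 FPKM on 3 reads in sh_SKA3 2. No library of either gene exceeded 3 reads, the upper limit that a count of 0 allows, so no fold change is given and a difference was not detectable at this depth. For MMP1 that limit amounts to 0.127, 0.169, 0.150 and 0.129 FPKM in sh_NC 1, sh_NC 2, sh_SKA3 1 and sh_SKA3 2.

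The MMP RNA of TU-177 came instead from 3 genes of membrane-type enzymes. Of 23 MMP genes listed, 14 had a row and 11 of these had a mean under 1 FPKM. MMP15, MMP17 and MMP24 together made up 95.7% of the summed FPKM of the 14 genes in sh_NC 1, 97.3% in sh_NC 2, 97.9% in sh_SKA3 1 and 98.1% in sh_SKA3 2. MMP15 and MMP24 span the membrane, and MMP17 is held by a lipid anchor. None of the 3 was called, against 12.3% of all genes tested, and their median log2 fold change was 0.21.

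MMP15 had 15.7 and 18.0 FPKM in sh_NC and 21.8 and 20.3 FPKM in sh_SKA3, without overlap (log2 fold change 0.31, standard error 0.09, adjusted p = 0.0829), and it passed in 3 of 10 alternative settings. MMP17 had 11.6 and 13.9 FPKM in sh_NC and 15.2 and 14.4 FPKM in sh_SKA3 (log2 fold change 0.21, adjusted p = 0.222). MMP24 overlapped between the groups, with 6.004 and 7.17 FPKM against 6.77 and 7.98 FPKM (log2 fold change 0.14, adjusted p = 0.452). Among the genes under the limit MMP7, matrilysin, was chosen after its values were seen. It had 0.719 and 0.669 FPKM in sh_NC and 0.338 and 0.0730 FPKM in sh_SKA3, on 20, 14, 8 and 2 reads. The scaled reads of sh_SKA3 were 0.281 times those of sh_NC, with an exact 95% interval from 0.124 to 0.581 for counting error only. Over libraries it was not called by limma without the filter on low values (log2 fold change -0.50, adjusted p = 0.211) and was called lower by voom with a lower limit of 10 mean reads (log2 fold change -1.99, standard error 0.56, adjusted p = 0.0101).

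**Figure D2:**
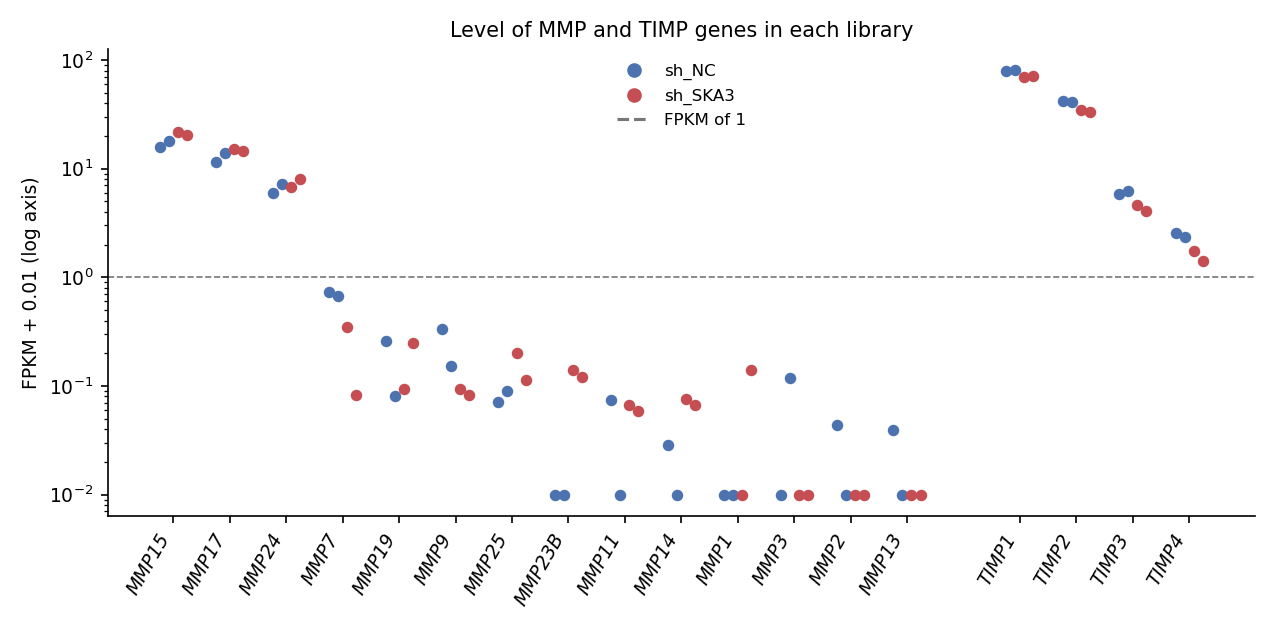
FPKM plus 0.01 on a log axis for the 14 MMP genes with a row and TIMP1 to TIMP4, each with 4 points for the libraries in the order sh_NC 1, sh_NC 2, sh_SKA3 1 and sh_SKA3 2. The dashed line marks 1 FPKM, and 11 of the 14 MMP genes lie under it. Points at the bottom are libraries listed at 0.

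TIMP1 and TIMP2 RNA was abundant, and TIMP1 to TIMP4 were each lower in sh_SKA3 in FPKM, with 1 past the test. Such a downward separation of the groups was found for 29.2% of all genes tested. TIMP2 (ENSG00000035862, chromosome 17, 78852977 to 78925387, minus strand) blocks MMPs and also bridges MMP14 and the latent form of MMP2 at the cell surface. It had 41.9 and 40.9 FPKM in sh_NC 1 and 2 and 34.9 and 33.2 FPKM in sh_SKA3 1 and 2, on 2823, 2075, 2001 and 2207 reads. The replicates of each group lay closer together than the groups, with means of 41.4 ± 0.721 and 34.1 ± 1.19 FPKM (SD, n = 2 each). Its log2 fold change of -0.27 had a standard error of 0.06 and passed the test (adjusted p = 0.0471).

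The call of TIMP2 stood close to the threshold. It was kept in 8 of 10 alternative settings with all libraries, with adjusted p-values down to 0.00406, and lost without the filter (0.0915) and without the mean-variance trend (0.0957). It was also lost when any library was left out, as were most calls over the whole table. The log2 fold change of TIMP2 stayed between -0.31 and -0.24 in these fits. CEP295NL, on the same strand, shares 198 of the 5633 exon bases of TIMP2 and had at most 0.142 FPKM. AC022966.1, on the opposite strand, shares 367 of them and is not analysed here.

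TIMP3 (ENSG00000100234, chromosome 22, 32801701 to 32863043, plus strand), which unlike the other TIMPs binds firmly to the matrix and also blocks several ADAM proteases, had the fold change of largest size among the 4 tested genes. It had 5.83 and 6.19 FPKM in sh_NC 1 and 2 and 4.63 and 4.09 FPKM in sh_SKA3 1 and 2, on 321, 257, 217 and 222 reads. The log2 fold change of -0.39 (standard error 0.09) missed the threshold narrowly (adjusted p = 0.0514). It passed in 5 of 10 alternative settings, over an adjusted p-value range from 0.00548 to 0.139, and with limma voom on the recovered reads the log2 fold change was -0.47.

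TIMP1 (ENSG00000102265, chromosome X, 47582313 to 47586789, plus strand), the most abundant of the TIMPs, had the fold change of smallest size among the 4 tested genes. It had 79.0 and 80.1 FPKM in sh_NC and 70.1 and 71.8 FPKM in sh_SKA3, on 1692, 1293, 1277 and 1515 reads. The log2 fold change of -0.16 (standard error 0.05) did not pass (adjusted p = 0.110), nor in any of the 10 alternative settings (0.0600 to 0.199). TIMP1 and TIMP3 lie in introns of SYN1 and SYN3 on the opposite strand and share no exon bases with them. SYN1 had at most 0.0614 FPKM and SYN3 was at 0 in all libraries.

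TIMP4 was not among the 9 genes and was chosen after its values were seen. It had 2.53 and 2.35 FPKM in sh_NC and 1.73 and 1.39 FPKM in sh_SKA3, a log2 fold change of -0.43 (standard error 0.13, adjusted p = 0.0921). The summed FPKM of TIMP1 to TIMP4 was 129 and 130 in sh_NC against 111 and 110 in sh_SKA3. The summed FPKM of the 14 MMP genes was 34.7 and 40.1 in sh_NC against 44.7 and 43.6 in sh_SKA3. The summed TIMP RNA, without other inhibitors, was therefore 3.72 and 3.23 times the MMP RNA in sh_NC and 2.49 and 2.53 times in sh_SKA3. The groups did not overlap in this ratio, which was not tested. The TIMP sum is mostly TIMP1 and the MMP sum mostly MMP15 and MMP17, and RNA sums say nothing of protein or activity. In bulk RNA, fewer cells expressing a gene and less RNA per cell cannot be told apart.

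**Figure D3:**
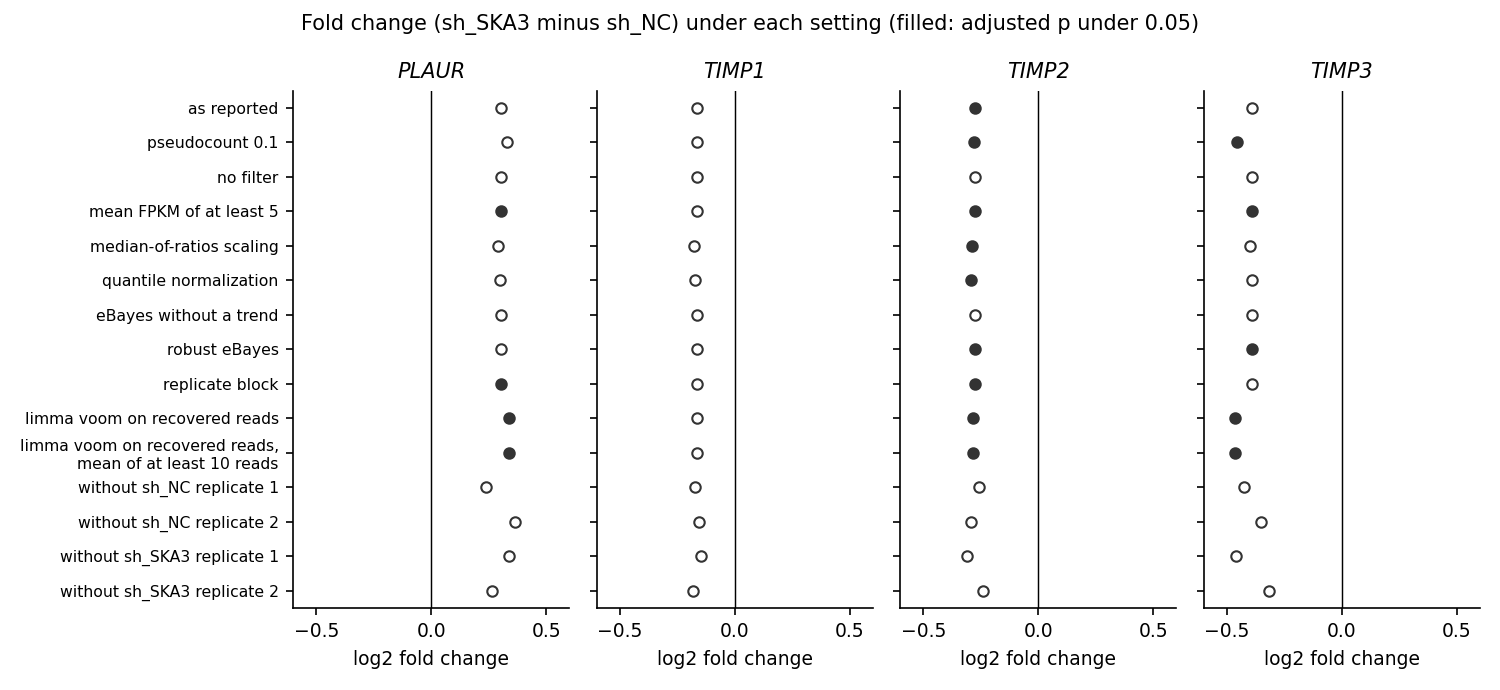
Log2 fold change (sh_SKA3 minus sh_NC) of PLAUR, TIMP1, TIMP2 and TIMP3 as reported, under the 10 alternative settings with all libraries and with each library left out. Filled points have an adjusted p-value under 0.05, and no point crosses 0. TIMP2 is filled as reported and in 8 of the alternatives, TIMP3 in 5, PLAUR in 4 and TIMP1 in none, and none is filled with a library left out.

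The list of metalloproteinase inhibitors held 7 genes, of which 6 were tested. TIMP2 was the 1 gene called lower, none was called higher, and the median log2 fold change was -0.22. Of all genes tested, 12.3% were called in either direction. TFPI2 went the other way from the TIMPs. Like TIMP4, TFPI2 and RECK were chosen after their values were seen. TFPI2, a Kunitz-type inhibitor of plasmin, had 1.88 and 2.29 FPKM in sh_NC and 3.43 and 4.74 FPKM in sh_SKA3 (log2 fold change 0.71, standard error 0.16, adjusted p = 0.0508). It was called higher in 5 of the 9 alternative settings with all libraries that tested it, with adjusted p-values from 0.00120 to 0.157. RECK, a membrane-anchored inhibitor of MMPs, had means of 2.35 ± 0.256 and 2.56 ± 0.245 FPKM (SD, n = 2 each), and its groups overlapped (log2 fold change 0.09, adjusted p = 0.661). SPOCK1, the remaining gene, had a mean under 1 FPKM.

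The ADAM and ADAMTS proteases are relatives of the MMPs that shed membrane proteins or cleave proteoglycans and are in part TIMP3 targets. None of 9 tested genes of 25 listed was called in either direction (median log2 fold change 0.09), against 12.3% of all genes tested. ADAM9 had 46.0 and 43.1 FPKM in sh_NC and 53.3 and 53.9 FPKM in sh_SKA3 (log2 fold change 0.26, adjusted p = 0.0528) and was called higher in 5 of 10 alternative settings, with adjusted p-values from 0.00429 to 0.107. ADAM15 had group means of 41.0 ± 2.197 and 35.4 ± 2.89 FPKM (log2 fold change -0.21, adjusted p = 0.160) and was called lower in 2 of 10 alternative settings. ADAM10, the main alpha-secretase, had means of 16.97 ± 0.457 and 19.3 ± 1.51 FPKM (log2 fold change 0.17, adjusted p = 0.199; SD, n = 2 in each).

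Among 24 lysosomal and membrane serine proteases and their regulators, 9 were tested, 1 was called lower and 2 were called higher (median log2 fold change -0.09). Of all genes tested, 6.11% were called lower and 6.16% higher. CTSD, the lysosomal aspartic protease cathepsin D, had 11.9 and 13.1 FPKM in sh_NC and 3.96 and 4.44 FPKM in sh_SKA3 (log2 fold change -1.38, standard error 0.09, adjusted p = 0.00709). CTSB, the cysteine protease cathepsin B, had 12.8 and 12.2 FPKM in sh_NC and 18.8 and 18.3 FPKM in sh_SKA3 (log2 fold change 0.53, standard error 0.06, adjusted p = 0.0152). FURIN, the proprotein convertase that cleaves the propeptide of membrane-type MMPs and of several ADAMs, had 40.6 and 46.3 FPKM in sh_NC and 73.4 and 76.9 FPKM in sh_SKA3 (log2 fold change 0.78, standard error 0.08, adjusted p = 0.0129). CTSD thus fell while CTSB and FURIN rose, and CTSZ (-0.14) and CTSL (-0.09), the genes of highest level beside FURIN, were not called (adjusted p = 0.234 and 0.410). CTSD lost its call without sh_NC 1 or sh_NC 2, and CTSB and FURIN without any single library, as did most genes called. The log2 fold changes with a library left out ran from -1.44 to -1.31 for CTSD. They ran from 0.50 to 0.56 for CTSB and from 0.69 to 0.87 for FURIN. With all libraries kept, the calls of CTSB and FURIN were also lost without the filter (adjusted p = 0.0542 and 0.0548).

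The list of MMP partners and genes of invadopodia, the protrusions at which tumor cells degrade matrix, had 17 of 20 genes tested. Of these, 1 was called lower and 1 higher (median log2 fold change -0.02), near the share of 12.3% called over all genes tested. SDC1, the cell-surface proteoglycan syndecan-1, had 49.6 and 55.6 FPKM in sh_NC and 19.2 and 20.3 FPKM in sh_SKA3 (log2 fold change -1.37, standard error 0.08, adjusted p = 0.00650). CAV1, the caveolar coat protein caveolin-1, had 26.3 and 24.3 FPKM in sh_NC and 37.7 and 38.1 FPKM in sh_SKA3 (log2 fold change 0.57, standard error 0.06, adjusted p = 0.0149). SDC1 lost its call without sh_NC 1 or sh_NC 2, and CAV1 without any single library, as did most genes called. With a library left out the log2 fold change ran from -1.45 to -1.29 for SDC1 and from 0.51 to 0.62 for CAV1. CAV1 also lost its call without the filter (adjusted p = 0.0545). BSG, the MMP inducer basigin, had the highest level of the list with 306 and 345 FPKM in sh_NC and 262 and 286 FPKM in sh_SKA3 (log2 fold change -0.24, adjusted p = 0.123). ITGB1 (0.06) and LGALS3 (-0.02), next in level, were not called, with adjusted p-values of 0.510 and 0.887.

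**Figure D4:**
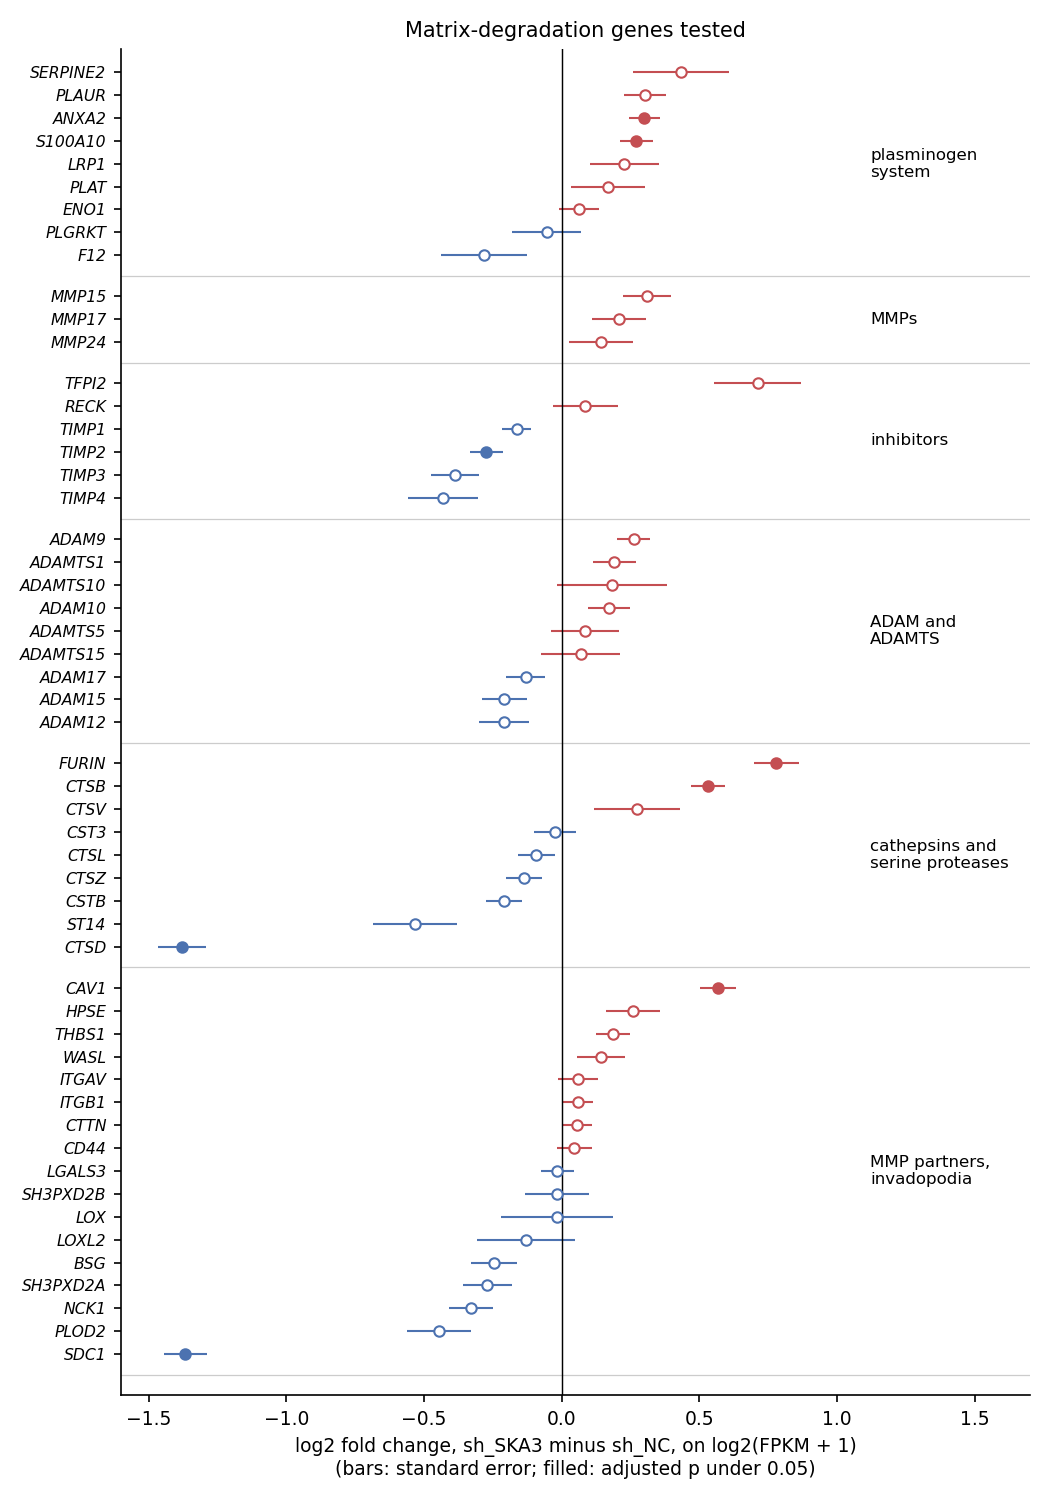
Log2 fold change on the log2(FPKM + 1) scale, sh_SKA3 minus sh_NC, of tested genes of the 6 lists, with standard errors as bars. Red points are above 0 and blue points below, and filled points have an adjusted p-value under 0.05. The filled points are TIMP2, CTSD and SDC1 on the lower side and ANXA2, S100A10, CTSB, FURIN and CAV1 on the higher side.

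The gene whose profile over the 4 libraries was followed further was TIMP3. After centring log2(FPKM + 1) of each gene on its mean, the nearest genes by Euclidean distance over these 4 libraries were MAB21L4 (distance 0.0270), CASC9 (0.0282), SYBU (0.0344), GFPT2 (0.0355) and RNASEH2C (0.0377). MAB21L4, the nearest, had 8.02 and 8.32 FPKM in sh_NC and 6.34 and 5.75 FPKM in sh_SKA3. With 4 libraries many profiles are alike, and the distance is a description.

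Markers of the cell types that could be in the libraries were read beside these results. Of 8 markers of squamous and epithelial cells 3 (KRT17, SFN and EPCAM) had a mean of at least 1 FPKM, and the defining keratins KRT5, KRT14 and KRT6A were at means of 0.0258, 0.00916 and 0.0179 FPKM. TP63 had a mean of 0.472 FPKM, and its groups overlapped. CDH1 was higher in sh_SKA3, with 0.149 and 0.288 FPKM in sh_NC and 0.447 and 0.344 FPKM in sh_SKA3, under the limit for testing. The summed level of the 8 ranged from 193 to 208 FPKM in sh_NC and from 167 to 189 FPKM in sh_SKA3. Most of this sum was SFN, with 144 and 155 FPKM in sh_NC and 133 and 150 FPKM in sh_SKA3, and most of the remainder was KRT17. Of 7 fibroblast markers, 6 had a row and 3 reached 1 FPKM (COL1A1, DCN and PDGFRB), with sums of 15.4 to 15.8 FPKM in sh_NC and 8.86 to 9.56 FPKM in sh_SKA3. The 3 did not move together. PDGFRB had 2.88 and 2.46 FPKM in sh_NC and 3.19 and 4.13 FPKM in sh_SKA3 (log2 fold change 0.34, adjusted p = 0.165), and COL1A1 was at -0.32 on the log2 scale (adjusted p = 0.140). DCN, the matrix proteoglycan decorin, made most of that difference, with 8.40 and 8.36 FPKM against 2.48 and 2.35 FPKM (log2 fold change -1.46, standard error 0.07, adjusted p = 0.00650, and 0.0660 and 0.0600 without sh_NC 1 and 2), while COL1A2 and LUM were near 0. COL3A1, under the limit for testing, had 0.797 and 0.765 FPKM in sh_NC and 0.476 and 0.361 FPKM in sh_SKA3. The 5 leukocyte markers with a row stayed under 1 FPKM each, with sums of 0.646 to 0.922 FPKM. The 2 endothelial markers with a row summed to at most 0.0968 FPKM. KRT17 (log2 fold change -0.53, adjusted p = 0.0396) and the fibroblast sum were lower in the same libraries as the TIMPs, and their part in the TIMP values was not tested. The call of KRT17 was lost without the filter (adjusted p = 0.121), without the trend (0.0751) and, like most calls, without any single library. SFN (-0.08, adjusted p = 0.537) and EPCAM (-0.04, adjusted p = 0.828) were not called. Whole reads were recovered for 99.2% of the genes tested, at inferred library sizes of 9015056 to 11966130.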

How the data were processed

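RNA-seq was made of 4 TU-177 libraries, 2 sh_NC and 2 sh_SKA3, grouped by the sample labels. The authors deposited FPKM values per Ensembl gene. The submitters' processing notes name HISAT2, Bowtie2 2.2.8, StringTie 1.3.1, Cuffdiff 2.1.1 and hg19 with no role or order, and the annotation and strand use are not given in the sources used here. FPKM removes gene length and library size, not differences in composition. Symbols, positions and exon lengths came from GENCODE 29 (GRCh38) by identifier, for 27199 of 28729 genes. No hg19 coordinate was used or converted.

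The test took in genes from a mean of 1 FPKM upward and ran on log2(FPKM + 1) with limma 3.58.1 in R 4.3.3 (lmFit, eBayes with trend), with Benjamini-Hochberg adjustment at 0.05. Whole reads were recovered from the FPKM steps, within a tolerance of 0.01, for 99.2% of the genes tested, 61.3% directly from exon length and the others from proportions between libraries. The library sizes behind the FPKM values, inferred from the steps of the lowest values, were 9015056 to 11966130 reads. They are not a reported sequencing depth. Replicates differed by more than counting noise (chi-square per degree of freedom 3.51 in sh_NC and 3.41 in sh_SKA3). Exact 95% intervals of read ratios and limits at 3 counts per library cover counting error only.

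There were 10 alternative settings with all libraries. They were robust eBayes, eBayes without a trend, quantile normalization or median-of-ratios scaling, a lower limit of 5 FPKM or none, a pseudocount of 0.1, a block for the replicate number, limma voom on the recovered reads, and voom from a mean of 10 reads upward. The last was chosen after seeing the data. Each library was also left out in turn. The genes and lists were chosen with earlier results of these data known. The result of 1 gene of the plasminogen list is not reported here, though it is in the counts of the list. Named are the 9 genes, SKA3, the called genes and the 3 of highest mean FPKM in each list, and the 5 profiles nearest to the gene of the 9 with the largest fold change. PLAT, MMP7, TIMP4, TFPI2 and RECK fall outside this rule and were chosen after their values were seen. On simulated data limma recovered 165 of 197 changed genes with 17 false calls among 12354 genes, and voom 196 with 7. The raised genes there had a median log2 fold change of 0.90 with limma and 0.99 with voom. Recovery at the smaller fold changes of PLAUR and the TIMPs was not tested. Other steps used Python 3.11.15 with pandas 2.3.3, scipy 1.17.1, matplotlib 3.10.9 and numpy 2.4.6.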

Additional observations from a re-analysis of the deposited data

How the results depend on the processing

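PLAUR, TIMP1, TIMP2 and TIMP3 kept their direction under the 10 alternative settings with all libraries and with each library left out. The count of the 9 genes called lower was 1 as reported, 2 with a pseudocount of 0.1, a mean FPKM of at least 5, robust eBayes, limma voom and voom with a mean of at least 10 reads, and 0 without the filter and without the trend. The count called higher was 0 as reported and 1 with a mean FPKM of at least 5, the replicate block and both voom settings. With a library left out the counts were 0 to 0 lower and 0 to 0 higher.

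Over all genes, 772 were lower and 779 higher as reported. These counts were 81 and 48 without the filter, 381 and 312 without the trend, 1515 and 1731 with voom, and 1653 and 1812 with voom and a mean of at least 10 reads. Leaving out 1 library gave 0 to 135 lower and 0 to 46 higher genes. Without sh_NC 1 limma called 0 in each direction, with 1486 lower and 1638 higher at an unadjusted p under 0.05, and without sh_NC 2 also 0, with 1555 and 1797. The causes were not tested, except that leaving a library out leaves 3 samples, of which the lone one is assumed to vary like the others.

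The replicate numbers of the groups are not said to mark a shared culture. Deviations of same-numbered libraries correlated at 0.0973 over 12645 genes, and 2 pairs cannot show a pairing. The replicate block called 965 genes lower and 1002 higher, with 1 of the 9 genes lower and 1 higher (PLAUR, adjusted p = 0.0476 from limma). The block also called BSG (-0.24, adjusted p = 0.0296). The sign of the log2 fold change turned for LGALS3 under quantile normalization (0.00672), and over the libraries left out ENO1 ran from -0.00893 to 0.134 and LGALS3 from -0.0627 to 0.0318, all uncalled. Depth limits MMP1, MMP9 and MMP14, whose 0 to 9 reads a library cannot show a difference of moderate size, and PLAU, with 17 to 33. FPKM steps were used as reads, so genes with reads shared between copies are uncertain.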
